A study of Rattus norvegicus with 18 samples.

Results

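The 6 libraries described here came from the ventral tegmental area (VTA) of rats fed the control liquid diet, and they were chosen by that diet label alone, as 6 of the 18 libraries of the series. All rats were adult male Sprague-Dawley animals labelled wild type, and each library held the RNA of 1 rat. The 6 control rats (numbered 1 to 6) received the Lieber-DeCarli control diet over 15 or 16 days. Of the rats used below only to check a pattern, 6 drank 9% v/v ethanol in that diet over 15 or 16 days, with tissue collected at 0 h (chronic ethanol), and 6 were sampled 24 h after the ethanol diet ended (withdrawal). The series asked how ethanol and its withdrawal change VTA transcripts; here the control tissue is described on its own, with no test between groups.

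The VTA lies in the ventral midbrain and is best known for dopamine neurons that project to the nucleus accumbens and prefrontal cortex. It also holds GABA neurons, glutamate neurons, and cells that release more than 1 transmitter, together with fibre tracts and glia. The red nucleus, the oculomotor nucleus, the interpeduncular nucleus and the raphe lie beside it, and the pons lies behind it, so a hand dissection can include parts of them. The labels give no coordinates or size for the dissected piece.

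Dopamine neurons are recognised by a small set of genes that turn up together, and the regulatory sequences of 3 of them are shown. They were picked, from the genes that varied with Th across the control rats as described further on, because they held a match to 1 of the motifs searched. Th encodes tyrosine hydroxylase, the rate-limiting enzyme of dopamine synthesis, Slc18a2 the transporter that fills vesicles with dopamine, and Ddc the enzyme that converts L-DOPA to dopamine. Each line is the 250 bases before a transcription start, read 5′ to 3′ on the gene's strand, from RefSeq on the GRCr8 assembly. The Th window is chr1:207508219-207508468 on the minus strand, the Slc18a2 window chr1:268399771-268400020 on the plus strand, and the Ddc window, 1 of 3 listed for that gene, chr14:90682784-90683033 on the minus strand. Capitals mark a cyclic AMP response element (TGACGTCA) in Th and Slc18a2, and in Ddc the reverse complement of AAAGGTCA, a site of the kind that nuclear receptors of the Nr4a family read.
Th: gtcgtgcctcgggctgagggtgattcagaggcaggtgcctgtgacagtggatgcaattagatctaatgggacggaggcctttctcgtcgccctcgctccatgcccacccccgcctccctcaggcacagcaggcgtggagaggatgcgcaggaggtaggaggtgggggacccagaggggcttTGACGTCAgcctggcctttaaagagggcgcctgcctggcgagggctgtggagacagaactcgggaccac
Slc18a2: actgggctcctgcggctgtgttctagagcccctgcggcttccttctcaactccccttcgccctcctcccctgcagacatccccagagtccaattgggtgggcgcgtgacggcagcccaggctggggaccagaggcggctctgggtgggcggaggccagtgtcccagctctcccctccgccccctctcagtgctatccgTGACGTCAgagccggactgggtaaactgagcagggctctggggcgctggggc
Ddc: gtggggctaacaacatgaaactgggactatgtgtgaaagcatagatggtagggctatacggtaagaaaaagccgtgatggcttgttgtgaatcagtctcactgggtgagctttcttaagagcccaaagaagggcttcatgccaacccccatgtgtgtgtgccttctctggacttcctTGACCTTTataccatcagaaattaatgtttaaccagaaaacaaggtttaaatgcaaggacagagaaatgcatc
The match in Th lay 69 to 62 bases before the start, that in Slc18a2 52 to 45 bases before it, and that in Ddc 73 to 66 bases before it. Both motifs were searched on both strands of these 250 bases in 8 genes out of Th and the 10 genes most like it, since 8 of the 11 had a promoter in the table. The table lists 10 promoters for these 8 genes, of which 2 held TGACGTCA and 1 held AAAGGTCA, beside 1.59% and 1.24% of all 33469 promoters in that table. Neither motif was found in this window of Slc6a3, Pitx3, Drd2, Atp2a3 and Ntsr1. A match of letters describes the sequence and does not show that a factor binds there.

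Control libraries held 32.2 to 43.1 M counted fragments (median 36.8 M), and 3 counts, the upper limit that a count of 0 allows, stood for 0.0708 to 0.0908 CPM (counts scaled to a common library size), covering counting error only. Genes of the mitochondrial chromosome took 0.633 to 1.05% of the counts. Most of those counts fell on the genes at positions 68 to 1025 and 1094 to 2664 of that chromosome, which had no matched symbol. The share is therefore not given as a measure of mitochondrial mRNA. Levels of different genes are compared below in TPM, which divides each count by the exon length listed for the gene and scales every library to the same total. Rats 5 and 3 stood apart from the others. In a principal component analysis of log2 CPM the first component held 48.1% of the variance, with a score of 56.6 for rat 5 and scores from -18.3 to -6.3 for the others. The second component held 25.3%, with a score of 38.7 for rat 3. Values are therefore given for each rat, or with and without these libraries, wherever they decide a result.

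Of 38445 genes in the files, 14344 (37.3%) reached at least 1 TPM in all 6 control rats, and 13069 of these were protein-coding and 342 were long non-coding RNA genes. At least 10 TPM in every rat was reached by 9353 genes, at least 100 TPM by 1707 and at least 1000 TPM by 78. No fragment was counted in any control rat for 11766 genes. The 10 most counted genes took 5.63 to 6.89% of the fragments of a library, the top 100 took 16.5 to 18.0%, and the top 1000 took 46.9 to 48.1%. The most abundant transcripts were those of myelin, the mitochondrial chromosome, iron storage, lipid transport and synapses.

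Mbp, myelin basic protein (chromosome 18, 79326738 to 79437310), was the most abundant gene per length, at 12090 ± 1440 TPM (SD, n = 6), with a lowest value of 9882 and a highest of 13970 TPM. Mobp, another myelin protein, was also among the top 20 genes, at 3061 TPM.

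The other leading genes came from several cell types. Fth1, the ferritin heavy chain that stores iron, was at 7167 ± 750 TPM, Apoe, the lipid carrier made by astrocytes, at 4955 ± 549 TPM, and Cst3, a protease inhibitor, at 4870 ± 648 TPM. Zwint (3935 TPM), the fatty acid desaturase gene Scd2 (3877 TPM), the matrix protein gene Sparcl1 (3581 TPM), Tmsb4x, which encodes an actin-binding peptide (3421 TPM), the sodium pump subunit gene Atp1b1 (2940 TPM), the synaptic SNARE gene Snap25 (2922 TPM), the glial calcium-binding protein gene S100b (2916 TPM) and the glycolytic enzyme gene Gapdh (2750 TPM) were also among the 20 highest. Sparcl1 was the steadiest of these, between 3387 and 3726 TPM. Snap25 and Atp1b1 were highest in rat 5, at 4081 and 3947 TPM, where the other rats held at most 2877 and 2844 TPM.

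Ptgds, prostaglandin D synthase, is made in meninges and oligodendrocytes, and 1 library set its place in the list. Its level was 1505 TPM in the lowest rat, 1634 TPM at the median, and 13120 TPM in rat 3, where it exceeded Mbp. The other 5 rats lay between 1505 and 1776 TPM. Of the 20 highest genes, 4 lay on the mitochondrial chromosome and had no match in the table of symbols, and 3 were shorter than 250 bases (2 of the mitochondrial genes and Mir770). For genes this short, division by length gives large values from few fragments, and the cDNA fragments averaged 250 bases per the labels. With these left out, 17 of the 20 genes stayed and Aldoc (2441 TPM), Ppia (2394 TPM) and Tpt1 (2270 TPM) entered.

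**Figure D1:**
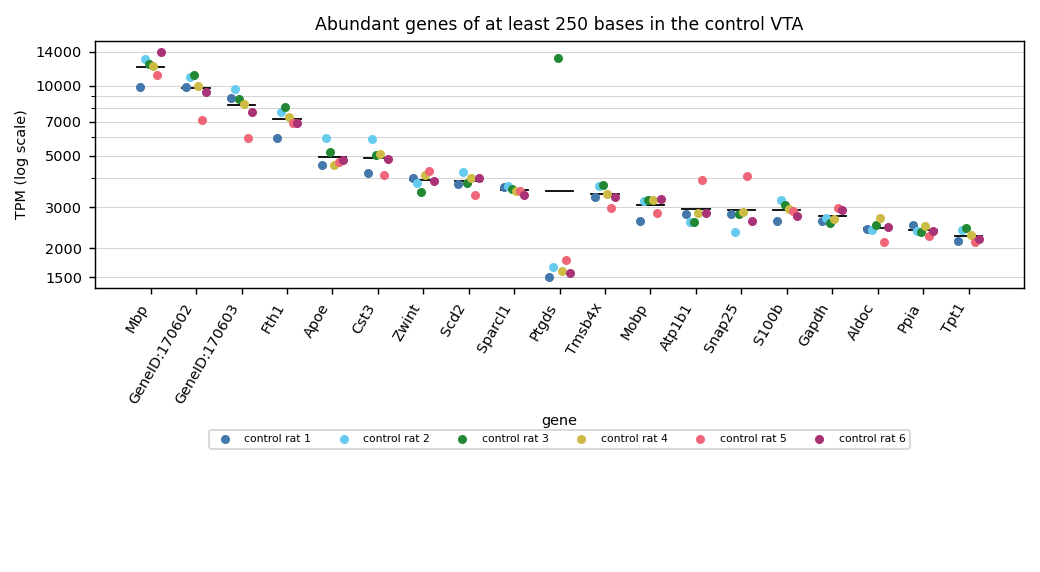
TPM (log axis) of 19 of the 20 most abundant genes with at least 250 bases of exon, in each of the 6 control rats (coloured points), with the mean as a bar. Rat 3 stands apart for Ptgds at 13120 TPM, and rat 5 is highest for Atp1b1 and Snap25 and lowest for both mitochondrial genes.

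The markers that define the VTA were present in every rat, at levels that differed widely. Th, which lies on chromosome 1 from 216073034 to 216080287 on the minus strand of Rnor_6.0, ranged from 356 TPM in rat 5 and 357 TPM in rat 1 to 1116 TPM in rat 2, with a median of 729 TPM. Slc6a3, the plasma membrane dopamine transporter (chromosome 1, 32323011 to 32363983, minus strand), ranged from 312 TPM in rat 5 and 332 TPM in rat 1 to 955 TPM in rat 2, with a median of 619 TPM. For both genes rats 1 and 5 were the lowest, and no other rat fell below 699 TPM for Th or 516 TPM for Slc6a3. Slc6a3 was lower than Th in every rat, by a mean of -0.20 ± 0.14 on the log2 scale of TPM (exact sign-flip p = 0.03125, adjusted p = 0.0385 over 16 gene pairs, n = 6). That is the smallest two-sided p that 6 rats allow, and it measures the spread between these rats only. The 16 pairs were chosen with earlier results of these data known. Their p-values, here and below, therefore describe how evenly a ratio held between rats and are no independent test. The small ratio of Slc6a3 to Th depended on the lengths: without division by length it was -0.03, with an exact adjusted p of 0.688. In bulk tissue, fewer dopamine neurons in a piece and less RNA of a gene per neuron cannot be told apart.

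Other genes of the dopamine phenotype reached substantial levels. Slc18a2 was at 148 ± 61.3 TPM, Aldh1a1, an aldehyde dehydrogenase of ventral dopamine neurons, at 496 ± 221 TPM, Sncg, gamma-synuclein, at 443 ± 184 TPM, Dlk1 at 186 ± 65.4 TPM, Slc10a4 at 133 ± 51.5 TPM and the GDNF receptor gene Ret at 113 ± 32.5 TPM (SD, n = 6). Ddc, whose gene model of 9905 bases is far longer than that of Th, was at 61.3 ± 24.6 TPM. The transcription factors that specify and maintain these neurons were lower: En1 at 61.0, En2 at 14.3, Nr4a2 at 12.2, Pitx3 at 9.55, Lmx1b at 7.09, Foxa2 at 6.70, Foxa1 at 5.12, Lmx1a at 4.44 and Sox6 at 2.12 TPM. Of 27 genes on the dopamine neuron list 26 reached 1 TPM in all 6 rats. Otx2, which marks a set of VTA dopamine neurons, had a count of 0 in every control rat. The list summed to 1737 TPM in rat 5, 2136 TPM in rat 1, 3490 TPM in rat 3, 3978 TPM in rat 4, 3986 TPM in rat 6 and 5033 TPM in rat 2.

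The 11 genes of the GABA neuron list summed to a mean of 2154 TPM, and ranged from 1480 TPM in rat 5 to 2440 TPM in rat 1. The 27 genes of the dopamine neuron list summed to a mean of 3393 TPM. The median gene was at 204 TPM on the GABA list and 40.0 TPM on the dopamine list. Both measures depend on which genes were listed. Gad1, which encodes the larger GABA-synthesising enzyme, ranged from 122.5 TPM in rat 5 to 396 TPM in rat 2, with a median of 339 TPM. Gad2, the synaptic form of the enzyme, ranged from 91.8 TPM in rat 5 to 273 TPM in rat 1, with a median of 237 TPM. Slc32a1, the vesicular GABA transporter, ranged from 61.5 TPM in rat 5 to 245 TPM in rat 6, with a median of 196 TPM. Rat 5 was lowest for all 3 genes and rat 3 was the next lowest. Gad1 exceeded Gad2 in each of the 6 rats, by a mean log2 ratio of 0.55 ± 0.15 (exact sign-flip p = 0.03125, adjusted p = 0.0385, n = 6). Other genes linked to GABA cells were the calcium-binding protein genes Calb2 (481 ± 55.1 TPM) and Pvalb (288 ± 94.1 TPM) and the peptide gene Sst (63.5 ± 39.1 TPM). Pvalb was 108 TPM in rat 5 and 267 to 366 TPM in the others. The transcription factors Tal1, Gata2 and Gata3 of midbrain GABA neurons averaged 13.4, 7.35 and 5.32 TPM. All 11 genes of the list reached 1 TPM in every rat.

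Glutamate neurons were read through the vesicular transporters. Slc17a6, the transporter of subcortical and VTA glutamate neurons, ranged from 56.8 TPM in rat 2 to 144.5 TPM in rat 1, with a median of 92.1 TPM. Slc17a7, the transporter of cortical and pontine neurons, stood at 3.13 to 18.5 TPM in 5 rats and at 670 TPM in rat 5. Slc17a8 was near 1 TPM, with a mean of 1.25 TPM. Slc17a6 exceeded Slc17a7 in 5 of 6 rats, with a mean log2 ratio of 2.56 ± 3.07 (exact sign-flip p = 0.125, adjusted p = 0.133, n = 6), and the remaining rat, rat 5, held a ratio of -3.26. Slc32a1 was above Slc17a6 in 4 of 6 rats, with a mean log2 ratio of 0.76 ± 0.81 (exact sign-flip p = 0.125, adjusted p = 0.133, n = 6), which did not pass the test. Without division by length this ratio was -0.26, with an exact sign-flip adjusted p of 0.533, so its direction depended on the lengths.

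Serotonin transcripts were highest in rats 2, 4 and 6. Tph2, the enzyme of serotonin synthesis in neurons, was 44.1 TPM in rat 2, 53.8 TPM in rat 4 and 40.2 TPM in rat 6, and 7.92, 10.5 and 1.90 TPM in rats 1, 3 and 5. Slc6a4, the serotonin transporter, was 14.3 to 17.0 TPM in rats 2, 4 and 6 and 0.859 to 3.16 TPM in rats 1, 3 and 5. Fev, the transcription factor that marks serotonin neurons, was 1.37 to 2.66 TPM in rats 2, 4 and 6 and 0.0840 to 0.497 TPM in the others. The neurons that make these transcripts lie in the raphe next to the VTA.

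Noradrenaline transcripts were present in other rats. Dbh, the enzyme that turns dopamine into noradrenaline, was 12.7 TPM in rat 1 and 4.07 TPM in rat 3, and at most 0.0554 TPM in the other 4, with a count of 0 in rats 2 and 4. Slc6a2, the noradrenaline transporter, was 6.99 TPM in rat 1, 1.81 TPM in rat 3 and at most 0.138 TPM in the others. The transcription factor gene Phox2a stayed below 1 TPM in all 6 rats but was also highest in rats 1 and 3, at 0.816 and 0.506 TPM. The histidine decarboxylase gene Hdc and Pnmt, which makes adrenaline, were below 1 TPM in every rat.

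Cholinergic genes were likewise highest in rats 1 and 3. Chat, choline acetyltransferase, was 11.9 and 13.0 TPM in rats 1 and 3 and 1.78 to 7.58 TPM in the other rats. Slc5a7, the choline transporter, was 36.2 and 38.5 TPM in rats 1 and 3 and 5.53 to 22.2 TPM in the others. These genes are strong in motor neurons of the oculomotor nucleus as well as in other cholinergic cells. Ache, the enzyme that degrades acetylcholine and is made by many neurons, was steady at 236 ± 18.9 TPM. Of the glycine genes, the transporter gene Slc6a9 was at 240 ± 21.9 TPM and the receptor subunit gene Glrb at 207 ± 25.3 TPM. The neuronal glycine transporter gene Slc6a5 was lower and less even, from 2.72 TPM in rat 5 to 22.7 TPM in rat 4.

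Among peptide genes the granins of secretory vesicles led: Scg2 at 466 ± 52.0, Chga at 424 ± 43.0 and Chgb at 421 ± 70.7 TPM. Cck, the peptide that many VTA dopamine neurons make, was next at 83.1 ± 30.0 TPM, followed by Sst, the enkephalin gene Penk at 56.3 ± 26.5 TPM, the substance P gene Tac1 at 36.3 ± 22.8 TPM, Vgf at 32.5 TPM, the nociceptin gene Pnoc at 29.6 TPM, the neurotensin gene Nts at 26.4 ± 14.4 TPM, Nxph4 at 17.9 TPM, the PACAP gene Adcyap1 at 15.8 TPM and the dynorphin gene Pdyn at 11.3 ± 7.54 TPM. Penk, Tac1, Nts, Pnoc, Pdyn, Cck and Sst were each lowest in rat 5, while Chgb (549.5 TPM), Vgf (54.0 TPM), Nxph4 (32.2 TPM), Adcyap1 (30.8 TPM) and Trh (16.3 TPM) were highest there. The whole list summed to 1631 TPM in rat 5 and 1581 to 2075 TPM in the others. Of 33 peptide genes 20 reached 1 TPM in all rats and 5 were below it in all rats, namely Npy, Ucn, Hcrt, Ghrh and Npw. Npy had a count of 0 in each of the 6 rats.

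**Figure D2:**
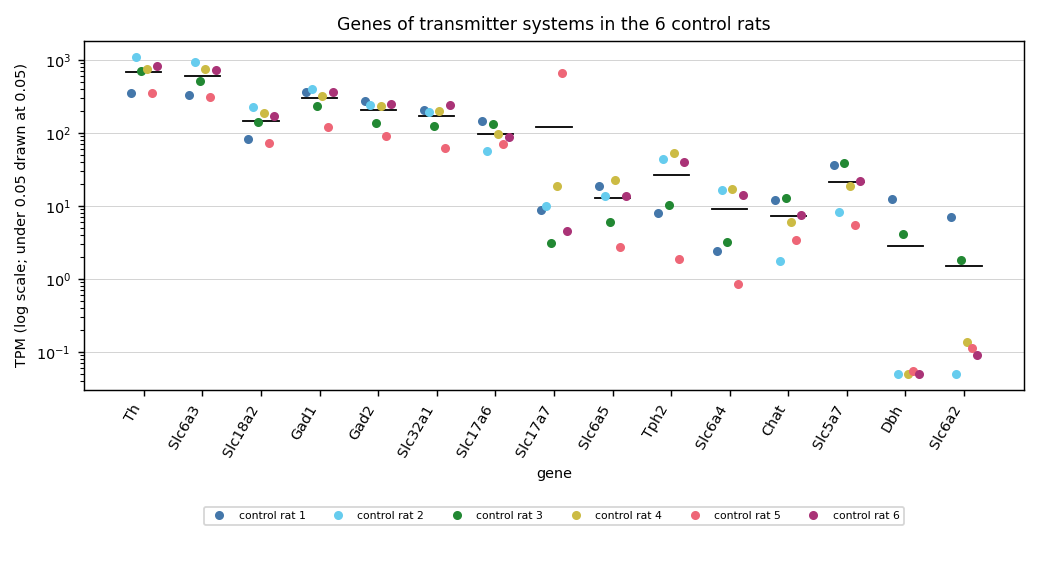
TPM (log axis) of transmitter genes in each of the 6 control rats (coloured points), with the mean as a bar; values under 0.05 TPM are drawn at 0.05. Rats 1 and 5 are lowest for Th and Slc6a3, rat 5 stands at 670 TPM for Slc17a7, rats 2, 4 and 6 are highest for Tph2, and rats 1 and 3 for Dbh.

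Over the transmitter lists, 76 of 103 genes (73.8%) reached 1 TPM in all 6 rats, over the receptor lists 100 of 144 (69.4%) and over the channel lists 83 of 94 (88.3%), beside 37.3% of all genes in the files. These lists hold genes picked as known in brain, so the shares describe which members were present and are no comparison with other genes.

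Gabbr1, a receptor gene for GABA, had the highest level of the 144 receptor genes listed. Among GABA-A subunits, which form the fast chloride channel, Gabrb2 was at 126 ± 30.4 and Gabrg1 at 101 ± 9.07 TPM (SD, n = 6). Gabra2, Gabra3 and Gabra5 lay between 27.9 and 40.4 TPM. The rho subunits Gabrr1, Gabrr2 and Gabrr3, known from retina, and Gabrp stayed below 1 TPM in all rats. Gabra6, the subunit of cerebellar granule cells, was 3.16 TPM in rat 1 and at most 0.707 TPM in the others. For the metabotropic GABA-B receptor, Gabbr1 was 547 ± 57.2 TPM and its obligate partner Gabbr2 was 83.4 ± 20.6 TPM, a mean log2 ratio of 2.74 ± 0.42 (exact sign-flip p = 0.03125, adjusted p = 0.0385, n = 6).

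Glutamate receptor lists had lower sums than the GABA receptor lists, but the lists differ in length and the sums do not rank single genes. The NMDA (7 genes), AMPA and kainate (11) and metabotropic (8) lists summed to means of 218, 426 and 107.5 TPM. The GABA-A (19 genes) and GABA-B (5) lists summed to 969.7 and 668 TPM. The median gene of a list was at 10.5, 27.4 and 12.2 TPM for the glutamate receptor lists, and at 14.2 and 25.8 TPM for the GABA receptor lists. The median SD of log2 CPM between rats was 0.313, 0.212 and 0.505 for the glutamate receptor lists, and 0.452 and 0.220 for the GABA receptor lists. The obligatory NMDA subunit gene Grin1 was 128 ± 16.4 TPM, and of the subunits that pair with it Grin2c was 47.7 ± 10.9, Grin3a 15.8 ± 5.76, Grin2d 10.5 ± 2.30, Grin2b 10.2 ± 1.35 and Grin2a 2.39 ± 0.69 TPM. Grin2b was above Grin2a in every rat, by a mean log2 ratio of 2.14 ± 0.33 (exact sign-flip p = 0.03125, adjusted p = 0.0385, n = 6). The gene models of Grin2b and Grin2a are 18147 and 9319 bases long, so their TPM values were low for the number of fragments counted, and Grin2b had a mean of 71.0 CPM. Of the AMPA subunits Gria2, which makes the channel impermeable to calcium, was 94.95 ± 14.6 TPM, Gria4 83.9 ± 13.3, Gria3 63.6 ± 5.14 and Gria1 43.3 ± 15.0 TPM. Gria2 exceeded Gria1 in every rat, by a mean log2 ratio of 1.22 ± 0.50 (exact sign-flip p = 0.03125, adjusted p = 0.0385, n = 6), and the ratio was 2.24 in rat 5, where Gria1 was 17.0 TPM. The metabotropic receptor gene Grm3 was at 26.2 ± 2.85 TPM. Grm8 and Grm2 were 54.7 and 18.5 TPM in rat 5, where the other rats reached at most 9.51 and 2.77 TPM.

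Chrna6 led the nicotinic receptor genes. This gene, largely restricted to catecholamine neurons, was 107 ± 42.7 TPM and, like Th, lowest in rats 5 and 1 (51.7 and 65.1 TPM) and highest in rat 2 (160 TPM). Chrna4 was 79.0 ± 9.53 TPM, Chrnb2 40.1 ± 3.81, Chrnb3 40.0 ± 12.3, Chrna5 21.2 ± 11.3 and Chrna7 20.2 ± 6.60 TPM. Chrna4 exceeded Chrna7 in every rat, by a mean log2 ratio of 2.05 ± 0.68 (exact sign-flip p = 0.03125, adjusted p = 0.0385, n = 6). Without division by length this ratio was 0.71, with an exact adjusted p of 0.0769. The muscarinic receptor gene Chrm2 led its family, at 88.6 TPM in rat 5 and 12.4 to 23.9 TPM in the others. Chrm5, the muscarinic receptor of dopamine neurons, was 8.72 ± 2.76 TPM.

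Among dopamine receptors Drd2, the autoreceptor, was 65.8 ± 24.0 TPM, and Drd5, Drd1, Drd3 and Drd4 averaged 2.501, 1.496, 0.474 and 0.0483 TPM. Drd2 exceeded Drd1 in every rat, by a mean log2 ratio of 5.49 ± 0.80 (exact sign-flip p = 0.03125, adjusted p = 0.0385, n = 6). Of 14 serotonin receptor genes Htr2c was far above the rest at 140 ± 53.9 TPM, with 52.0 TPM in rat 5 and 99.7 to 196 TPM in the others. The next was Htr5a at 10.4 TPM. Htr2c exceeded Htr2a in every rat, by a mean log2 ratio of 3.88 ± 0.88 (exact sign-flip p = 0.03125, adjusted p = 0.0385, n = 6). Htr2b, Htr3b, Htr5b and Htr7 were below 1 TPM in all rats.

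Opioid receptors were at low levels. Oprl1, the nociceptin receptor, was 24.0 ± 4.32 TPM and Oprk1, the kappa receptor found on dopamine neurons, was 14.7 ± 5.11 TPM. Oprd1, the delta receptor, was 10.4 TPM in rat 5 and 0.987 to 3.29 TPM in the others. Oprm1, the mu receptor, was read by 14 fragments in all 6 libraries together, with 0 in 2 rats and 7 at most, where Oprk1 was read by 6099. Oprm1 was below Oprk1 in all 6 rats (exact sign-flip p = 0.03125, adjusted p = 0.0385, n = 6), and no fold is given because of the counts of 0. The exons listed for Oprm1 (4862 bases) share no base with another gene on the same strand, and whether fragments of this gene were lost in counting was not tested.

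Of 44 peptide and other modulatory receptor genes 32 reached 1 TPM in every rat. The highest were the neurotensin receptor of astrocytes Ntsr2 (156 ± 12.6 TPM), the adenosine A1 receptor Adora1 (130 ± 35.4 TPM), the PACAP receptor Adcyap1r1 (122 ± 16.1 TPM), Ret, and the BDNF receptor Ntrk2 (110 ± 7.40 TPM). The neurotensin receptor of dopamine neurons, Ntsr1, was 30.3 ± 10.6 TPM and the neurokinin receptor Tacr3 was 21.4 ± 6.79 TPM. The cannabinoid receptor Cnr1 was 62.7 TPM in rat 5 and 22.1 to 37.6 TPM in the others. The orexin receptor genes stood at opposite ends in rat 5, where Hcrtr1 was lowest at 2.45 TPM and Hcrtr2 highest at 17.8 TPM.

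The median SD of log2 CPM between rats was 0.267 to 0.481 in the 6 lists of ion channel genes. Among sodium channel genes the pore-forming genes Scn2a, Scn8a and Scn1a were at 45.4 ± 7.30, 44.4 ± 19.1 and 29.0 ± 12.7 TPM, and the leak channel Nalcn at 58.2 ± 9.23 TPM. Scn10a and Scn11a, of sensory ganglia, were below 1 TPM in all rats. Of the calcium channel genes Cacna2d2 was 98.4 ± 20.4 TPM, and the pore genes Cacna1e, Cacna1b, Cacna1a and Cacna1g were 32.3, 29.8, 29.4 and 19.5 TPM. The L-type gene Cacna1d, which supports pacemaking in dopamine neurons, was 8.63 ± 0.78 TPM and Cacna1c was 7.05 ± 1.78 TPM.

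Of the voltage-gated potassium channel genes 10 lay between 68.4 and 112 TPM, among them the delayed rectifiers Kcna6 (112 ± 14.1 TPM), Kcnc1 (106 ± 18.0 TPM), Kcna1 (94.8 ± 34.8 TPM) and Kcna2 (90.3 ± 10.7 TPM), and the A-type gene Kcnd3 (77.2 ± 22.4 TPM). Kcnd3, the main A-type gene of midbrain dopamine neurons, was 39.4 TPM in rat 5 and 70.9 to 108 TPM in the others. The SK channel genes Kcnn2 and Kcnn3, which shape firing of dopamine neurons, were 8.20 ± 2.90 and 8.08 ± 1.65 TPM. Their log2 ratio was 0.01 ± 0.61 over 6 rats, with Kcnn3 higher in 4 rats and lower in 2 (exact sign-flip p = 1.0, adjusted p = 1.0). Of the inward rectifiers Kcnj10, the potassium channel of glia, was the steadiest channel gene named here, at 107 ± 3.56 TPM. Kcnj6, the GIRK2 subunit of dopamine neurons, was 17.8 ± 2.84 TPM. Hcn2 was the leading pacemaker channel gene at 213 ± 39.9 TPM.

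**Figure D3:**
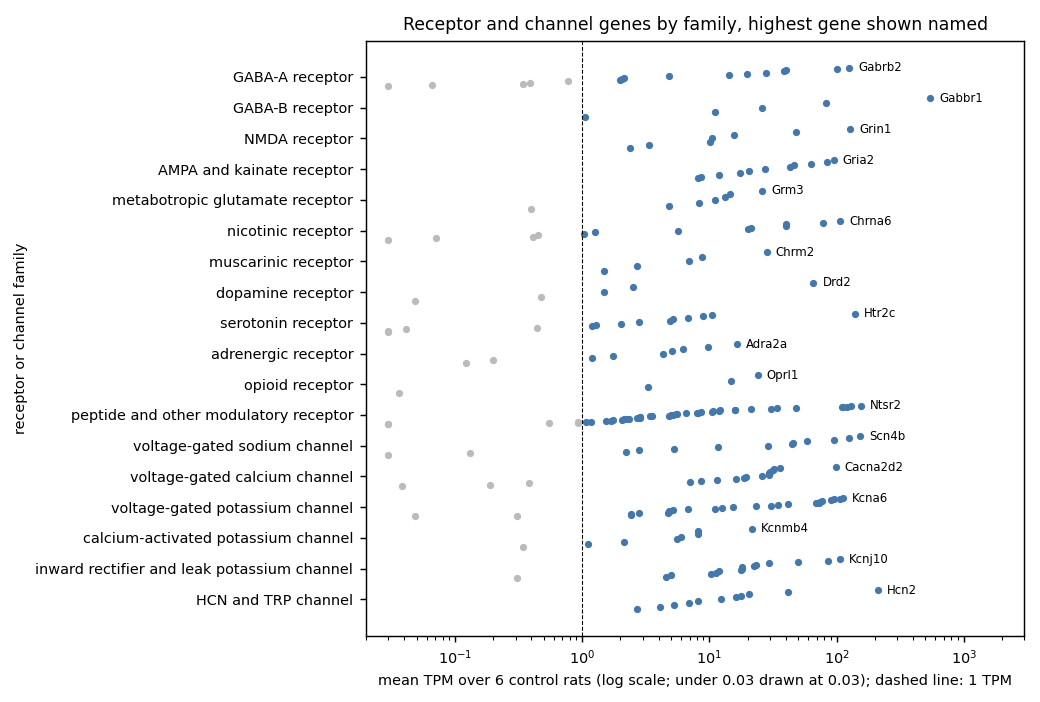
Mean TPM over the 6 control rats (log axis) of receptor and channel genes by family, some members left out, with the highest gene shown in each family named; grey points lie below 1 TPM and values under 0.03 are drawn at 0.03. Gabbr1 (547 TPM) and Hcn2 (213 TPM) are the farthest to the right.

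Transcripts of oligodendrocytes, astrocytes and microglia were steadier between rats than those of dopamine and GABA neurons. The 18 oligodendrocyte genes summed to 3.17% of all TPM (2.71 to 3.55% by rat), the 15 astrocyte genes to 1.24% (1.13 to 1.37%), the 9 genes of oligodendrocyte precursors to 0.143% (0.116 to 0.179%) and the 15 microglial genes to 0.141% (0.130 to 0.154%). The 15 endothelial and pericyte genes summed to 0.102% (0.0696 to 0.193%) and 7 ependymal genes to 0.00140%. These sums depend on which genes were listed and are not cell shares. The median SD of log2 CPM between rats was 0.182 for the oligodendrocyte genes, 0.136 for the astrocyte genes and 0.184 for the microglial genes, beside 0.145 over the 14976 genes averaging 1 CPM or more. It was 0.651 for the dopamine neuron genes and 0.621 for the GABA neuron genes.

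Within the myelin genes, Cnp (1126 ± 129 TPM), Cldn11 (832 ± 97.2 TPM), Mal (666 ± 74.8 TPM), Mag (489 ± 55.3 TPM) and Mog (230 ± 21.5 TPM) lay below Mbp and Mobp. Bcas1, a gene of oligodendrocytes that are starting to myelinate, was 975 ± 164 TPM, and Pdgfra, the growth factor receptor of precursors, 37.5 ± 2.93 TPM. Of the microglial genes the protease gene Ctss led at 596 ± 44.1 TPM, and the receptor genes Csf1r, Cx3cr1 and P2ry12 were 81.2, 51.4 and 19.8 TPM. Siglech was below 1 TPM in all rats.

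Gfap was the most uneven of the astrocyte genes named here. S100b (2916 ± 217 TPM), Aldoc (2441 ± 186 TPM), Ndrg2 (1963 ± 108 TPM), the glutamine synthetase gene Glul (1591 ± 192 TPM) and the glutamate transporter gene Slc1a3 (415 ± 31.8 TPM) differed little between rats. Gfap, the filament protein of fibrous and reactive astrocytes, ranged from 472 TPM in rat 4 to 2124 TPM in rat 5, with a median of 768.5 TPM and 1572 TPM in rat 2. Aqp4, the water channel of astrocyte end-feet, was highest in the same rats, 995 TPM in rat 5 and 864 TPM in rat 2. The glutamate transporter gene Slc1a2 was at 25.9 ± 6.94 TPM, below Slc1a3 in every rat by a mean log2 ratio of -4.04 ± 0.33 (exact sign-flip p = 0.03125, adjusted p = 0.0385, n = 6). The gene model of Slc1a2 in the files is 1685 bases long, and fragments from any part of the transcript outside those bases were not counted for it.

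Some genes known to be strong in brain or in the cells around it were read at or near 0. Eno2, the enolase of neurons, was 0.553 ± 0.091 TPM, while the other 11 general neuron genes, among them Uchl1 (2249 ± 145 TPM) and Syp (1239 ± 77.0 TPM), reached 1 TPM in every rat. Col1a2 and Ogn had a count of 0 in all control rats, although Col1a1 and Col3a1 were counted. None of Eno2, Npy, Col1a2 and Ogn shares an exon base with another gene on the same strand in the files. Fragments that aligned to several places were left out by the authors, and their part in these values was not tested. A value near 0 in these files is therefore given as a count and not as absence of the transcript.

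Most genes differed little between control rats, and a few differed greatly. The SD of log2 CPM had a median of 0.145 and a 90th percentile of 0.465 over 14976 genes averaging 1 CPM or more, where counting error alone would give a median of 0.0482. An SD of at least 1 was reached by 272 genes (1.82%). For 148 of them (54.4%) the rat farthest from the median was rat 5, with 107 genes above and 41 below, and for 96 (35.3%) it was rat 3, with 93 above and 3 below. Rats 1, 6, 2 and 4 were farthest for 14, 11, 3 and 0 genes. Without rats 3 and 5, 47 genes had an SD of at least 1.

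The same measure was read in libraries that did not choose these genes. Of the 272 genes, 136 (50%) also had an SD of at least 1 among the 6 chronic ethanol rats and 70 (25.7%) among the 6 withdrawal rats, beside 1.65 and 2.77% of all genes averaging 1 CPM or more. These are shares of genes and carry no test.

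The 20 genes of largest SD were Dbh (SD of log2 CPM 3.40), Hoxc4 (3.26), Rps2-ps2 (3.20), Actg2 (3.05), Hoxd3, Hoxd4, Tusc2 (2.94), Duox2, Hoxb3, Cd200l2, Slc17a7 (2.78), Rpl30l2, Cnn1, Tmem72, Hoxb5, Kcnk15, Hoxb2, Slc6a2, Grlf1-ps1 and Neurod2. They are grouped here by the rat farthest from the median, above or below it. Rat 5 was farthest, and above the median, for 11 of them, Hoxc4, Hoxd3, Hoxd4, Duox2, Hoxb3, Cd200l2, Slc17a7, Tmem72, Hoxb5, Hoxb2 and Neurod2. Rat 3 was farthest above for the smooth muscle genes Actg2 and Cnn1, and rat 1 for Dbh, Slc6a2 and Kcnk15. Rat 1 was farthest below for Rpl30l2, at 2.70 TPM, with rats 5 and 4 also low at 3.59 and 7.18 TPM. Rat 2 was farthest below for Rps2-ps2, and rat 6 for Tusc2 and Grlf1-ps1. Rps2-ps2, Grlf1-ps1 and Rpl30l2 are pseudogenes or a near copy of a ribosomal protein gene by their names, so their fragments may belong to a gene of the same sequence and their values are uncertain.

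Rat 5 held transcripts of more caudal tissue beside its low dopamine and GABA markers. Hox genes, which are switched on in hindbrain and spinal cord and not in midbrain, summed to 80.9 TPM in rat 5 and to 0.119 to 1.25 TPM in the other rats. Of the 14 Hox genes listed, 7 were below 1 TPM in every rat, rat 5 included, and 6 of these (Hoxa2, Hoxa3, Hoxa4, Hoxa5, Hoxb6 and Hoxb8) had a count of 0 in all 6. Whether fragments of those genes were lost in counting was not tested. Hoxb2 was 19.6 TPM in rat 5 and at most 0.607 TPM elsewhere, and Hoxd3, Hoxb5, Hoxb3, Hoxc4 and Hoxb4 were 13.9, 13.1, 12.0, 9.65 and 8.50 TPM there. Genes of pontine and precerebellar nuclei summed to 863 TPM in rat 5 and 65.2 to 75.3 TPM in the others, mostly through Slc17a7. The transcription factor genes Zic1, Zic2, Neurod6, Neurod2, Barhl1 and Pax6 were 87.7, 79.5, 52.0, 51.4, 31.4 and 22.7 TPM in rat 5. In the other rats they were at most 17.5, 29.2, 3.34, 1.59, 0.662 and 4.59 TPM. The list of cortex and hippocampus genes, which holds Neurod6 and Neurod2, had its highest mean log2 CPM in rat 5 (1.26, beside 0.73 to 0.90 in the others). It summed to 209 TPM in rat 5 and 132 to 228.5 TPM in the others, and 4 of its 10 genes, among them Tbr1 and Emx1, were below 1 TPM in all 6 rats. Immediate early genes summed to 212 TPM in rat 5 and 72.5 to 102 TPM in the others. How much of these values came from the extent of the dissected piece was not tested, and the labels record nothing about it.

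Rat 3 held transcripts of meninges and vessel walls. The 12 meningeal fibroblast genes summed to 505 TPM in rat 3 and 55.7 to 103 TPM in the others, with Igf2 at 148 TPM, Dcn at 75.6 TPM, Col3a1 at 55.9 TPM, Aldh1a2 at 55.3 TPM and Slc6a13 at 47.5 TPM in that rat. Of the list, 10 of 12 genes were highest in rat 3 and the other 2, Col1a2 and Ogn, had a count of 0. The smooth muscle genes Acta2 and Tagln, which mark arteries, were 322 and 663 TPM in rat 3, 64.0 and 127 TPM in rat 6, and at most 19.6 and 48.4 TPM in the others. Red blood cell genes summed to 2374 TPM in rat 6 and 2229 TPM in rat 3, and 842 to 1321 TPM in the others. The general neuron genes summed to 13490 TPM in rat 3, the highest of the 6, with the neurofilament genes Nefl and Nefm at 2319 and 1527 TPM there.

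Rats 1 and 3 shared a further set. Beside Dbh, Slc6a2, Chat and Slc5a7, the list of red nucleus and oculomotor genes had its highest mean log2 CPM in rats 3 and 1 (3.36 and 3.31), with 1.202 in rat 5 and 1.46 in rat 2. In summed TPM only rat 3 stood apart, at 907 TPM, with 515.5 TPM in rat 1, 513.8 TPM in rat 4 and 293 to 441 TPM in rats 2, 5 and 6. Most of the sum in rat 3 came from 1 gene, Spp1, osteopontin, which is strong in large brainstem motor neurons. Spp1 was 722 TPM in rat 3 and 210 to 418 TPM in the others. Cbln1, the synaptic organiser of the cerebellin family, was 85.2 and 70.6 TPM in rats 3 and 1 and 9.09 to 44.1 TPM in the others. Calca, the gene of calcitonin gene-related peptide, a product of motor neurons among other cells, was 28.0 TPM in rat 1, 8.80 TPM in rat 3 and at most 1.82 TPM in the others. The list of cerebellum genes was also highest in rats 1 and 3, summing to 215 and 227 TPM there and 137 to 163 TPM in the others. Genes of the hypothalamus and mammillary body and of the thalamus differed less, summing to 42.2 to 59.4 TPM and 510 to 642 TPM by rat.

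**Figure D4:**
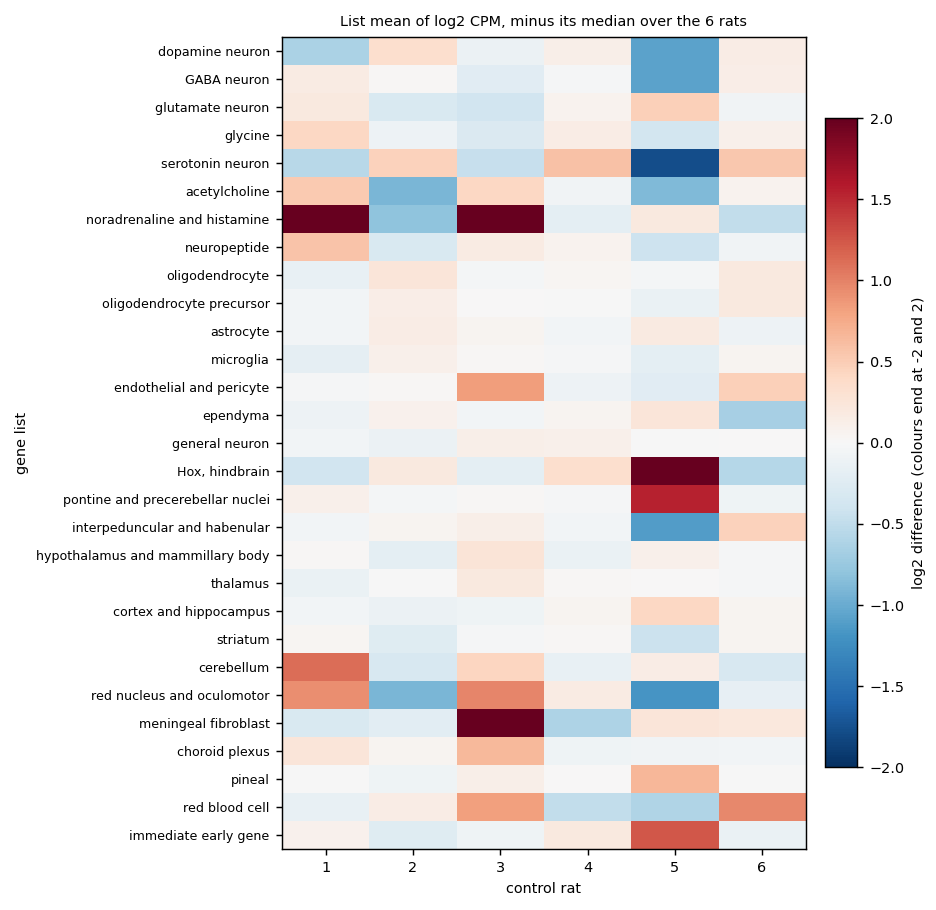
Mean log2 CPM of each gene list in each control rat, minus the median of the 6 rats (red above, blue below; colours end at -2 and 2). Rat 5 stands out for the Hox and pontine lists and is lowest for the dopamine, GABA and serotonin lists, rat 3 stands out for the meningeal list, rats 1 and 3 for noradrenaline and histamine, and the oligodendrocyte, astrocyte and microglia rows are pale.

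Rat 6 stood apart at Tusc2 and some of its neighbours. Tusc2, on chromosome 8 from 116318963 to 116322181 of Rnor_6.0, was read by 12 fragments in rat 6 (0.384 TPM) and stood at 58.6 to 85.6 TPM in the other control rats. In CPM it was 0.306 in rat 6 and 30.1 to 74.2 in the other 17 libraries of the series. Its upstream neighbour Rassf1, which starts at 116307149 and ends at 116318289 on the same strand, was also lowest in rat 6, with 67 fragments (2.12 TPM) beside 15.2 to 19.2 TPM in the other control rats. Hyal1, farther downstream, was 19.4 CPM in rat 6 and 26.4 to 54.0 CPM in the other 17 libraries. Naa80, which overlaps Hyal1 and Hyal3, was 15.9 CPM in rat 6 and 17.4 to 29.3 CPM in the others. Hyal2, Hyal3 and Zmynd10 in the same interval lay within the range of the other libraries. Neither Tusc2 nor Rassf1 shares an exon base with another gene on its strand. Rassf1, Naa80, Zmynd10 and the Hyal genes were picked for their position after the value of Tusc2 was seen.

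Of the 10 genes that varied most closely with Th across the control rats, 7 are on the dopamine neuron list. Among 627 genes averaging 5 CPM or more with an SD of at least 0.5, the 10 of highest Pearson r with Th in log2 CPM were Slc39a4 (0.993), Ddc (0.989), Pitx3, Slc18a2, Drd2 (0.983), Slc6a3 (0.981), Chrna6, Atp2a3 (0.979), Cpne7 (0.978) and Ntsr1 (0.967), over 6 rats. These values describe how the genes were picked and carry no test. The share of dopamine list genes among the 627 was not counted, so the 7 of 10 has no background beside it. The median SD on that list was 0.651, above the limit of 0.5, so the limit itself favoured its members. Slc39a4, a zinc transporter gene, Atp2a3, a calcium pump gene, and Cpne7, a copine gene, are not on that list. Those 3 were at 4.17 ± 1.47, 11.9 ± 4.61 and 90.7 ± 31.5 TPM. Slc39a4 was 2.39 TPM in rat 1 and 2.62 TPM in rat 5 and highest in rat 2, at 6.26 TPM, the order of Th at its ends.

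The 10 genes were then read in rats that had not chosen them. Each was set against Th within the 6 chronic ethanol rats and within the 6 withdrawal rats, which gave 20 exact permutation tests. Of these, 18 had an adjusted p under 0.05 by Pearson r and 18 by Spearman rho, all 10 genes in chronic ethanol and 8 of 10 in withdrawal. The share of all genes that would pass such a test was not computed, so whether this sets the 10 genes apart was not tested. For Slc6a3, Pearson r was 0.987 and 0.985 and Spearman rho was 1.0 in both groups, with an exact permutation adjusted p of 0.00231 for r, the smallest reached, and 0.00463 for rho. For Atp2a3, r was 0.866 in chronic ethanol and 0.982 in withdrawal (exact permutation adjusted p = 0.00868 and 0.00397, rho 0.886 and 0.943). For Cpne7, r was 0.965 and 0.981 (exact permutation adjusted p = 0.0108 and 0.00231, rho 0.943 and 1.0). With the 2 rats farthest from the median of Th left out, r was 0.980 and 0.932 for Slc6a3, 0.850 and 0.924 for Atp2a3, and 0.967 and 0.914 for Cpne7, over 4 rats each. For Slc39a4 in chronic ethanol r went from 0.989 to 0.694, so that relation rests in part on those rats.

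The 2 genes that did not pass in withdrawal were Slc39a4 and Ddc. There r was 0.333 for Slc39a4 (exact permutation adjusted p = 0.412, rho 0.429) and 0.738 for Ddc (exact permutation adjusted p = 0.129, rho 0.429). With the 2 rats farthest from the median of Th left out, r was 0.973 and 0.997 over 4 rats. Th itself ranged from 69.2 to 729 CPM in the chronic ethanol rats and from 17.4 to 625 CPM in the withdrawal rats, so these relations rest on a wider range than in the control rats, where it was 233 to 772 CPM.

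**Figure D5:**
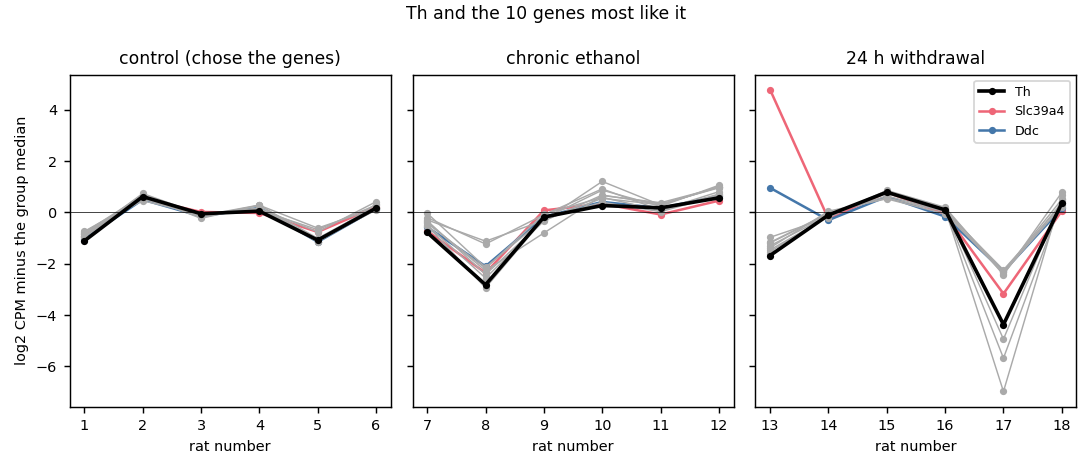
Log2 CPM minus the group median for Th (black) and the 10 genes chosen for their likeness to it in the control rats (grey, with Slc39a4 in red and Ddc in blue), in the control, chronic ethanol and withdrawal rats. The lines run together in chronic ethanol, and in withdrawal Slc39a4 and Ddc leave them in rat 13.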

How the data were processed

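Each of the 18 libraries held the RNA of 1 rat, sequenced as stranded paired-end mRNA libraries with 101 cycles per end, per the labels' protocols. The authors deposited raw counts of fragments per gene, made with featureCounts 1.5.0 per the file headers, on the reverse strand, without fragments that matched several places or genes. STAR 2.5.2a, Rnor_6.0, R 3.3.3 and limma are named in the submitters' processing notes. All counts were integers, and no 2 libraries had the same total. Symbols for 29322 of 38445 genes came from a RefSeq table, and positions are given on Rnor_6.0 as the files list them.

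TPM was computed from the counts and the deposited exon lengths. Log2 CPM used TMM factors (edgeR 4.0.16, R 4.3.3) and a prior count of 2. Within each rat the log2 TPM ratio of 16 gene pairs was tested with an exact two-sided sign-flip test, with 0.5 counts in place of 0 for Oprm1, and likeness to Th with exact permutation over 720 pairings, both with Benjamini-Hochberg adjustment (Python 3.11.15). The methods were also run on simulated counts with known answers and independent noise between rats, which does not show how they perform on these data. Between control libraries chi-square per degree of freedom was at least 12.6, so none were copies.

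Genes named are the 20 most abundant, the 20 of largest SD, the 10 most like Th, genes of the pairs, and members of 47 lists, of which those described were picked after their values were seen. Of 533 listed symbols 531 matched (not Ccdc153 and Tac2). Some of the results are not reported here. The members, lists and pairs were chosen with earlier results of these data known. Other lengths, scalings, filters and thresholds, and each rat left out, were tried, and leaving out rats 3 and 5 together, and the limit of 250 bases, were added after the data were seen.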

Additional observations from a re-analysis of the deposited data

Results flagged for a closer look

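A value was singled out where 1 control rat lay far from the other 5, by Dixon's test at its 95% critical value. Chance alone marks about 1 in 20 groups, and neighbouring genes and overlapping lists share a library, so the marks are not independent. The named genes include those of largest SD and others picked after their values were seen, so their number of marks cannot be read against that rate. Of 238 named genes 60 were marked and of 47 gene lists 11, and rat 5 was the distant rat for 45 of these 71 marks, rat 3 for 14, rat 1 for 7, rat 6 for 3, and rats 2 and 4 for 1 each.

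In rat 5, 7 summed lists were high: pontine and precerebellar nuclei at 863 TPM, Hox genes at 80.9, glutamate neuron at 1174, sodium channels at 1368, muscarinic receptors at 113, adrenergic receptors at 82.5 and immediate early genes at 212 TPM. Slc17a7 was high there at 670 TPM. The Hox genes high there were Hoxb2 at 19.6, Hoxd3 13.9, Hoxb5 13.1, Hoxb3 12.0, Hoxc4 9.65, Hoxb4 8.50 and Hoxd4 4.18 TPM. Other transcription factor genes high there were Zic1 at 87.7, Zic2 79.5, Neurod6 52.0, Neurod2 51.4, Barhl1 31.4 and Pax6 22.7 TPM. Receptor, channel and synaptic genes high in rat 5 were Snap25 at 4081, Atp1b1 3947, Adora1 199.6, Kcna1 161, Gabbr2 123, Chrm2 88.6, Grm8 54.7, Gabra5 51.8, Cacna1e 47.1, Grm2 18.5, Hcrtr2 17.8, Kcnn2 14.1, Oprd1 10.4, Scn10a 0.441, Gabrr3 0.397 and Gabrp 0.0193 TPM, the last of these from counts at the detection limit. Trh at 16.3, Tmem72 at 32.4, Zmynd10 at 30.1, Duox2 at 8.21, Cd200l2 at 5.08 and Hdc at 0.880 TPM were also high. Lower there than in all other rats were Hcrtr1 at 2.45 and Lmx1a at 1.86 TPM.

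In rat 3 the meningeal list was high at 505 TPM, endothelial and pericyte genes at 1931 TPM and red nucleus and oculomotor genes at 907 TPM, mostly through Spp1. The genes were Ptgds at 13120, Tagln 663, Acta2 322, Igf2 148, Dcn 75.6, Col3a1 55.9, Aldh1a2 55.3, Slc6a13 47.5, Cnn1 35.3, Actg2 30.5 and Col1a1 18.3 TPM. In rat 1 the noradrenaline and histamine list was high at 21.4 TPM, with Dbh at 12.7, Slc6a2 at 6.99, Sst at 138, Calca at 28.0, Kcnk15 at 9.16 and Gabra6 at 3.16 TPM. In rat 6, Tusc2 was low at 0.384, Rassf1 at 2.12 and Hyal1 at 13.4 TPM. Ndrg2 was high in rat 2 at 2163 TPM, and Siglech in rat 4 at 0.156 TPM, a level of 2 fragments.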

How the results depend on the processing

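The number of genes at 1 TPM or more stayed within 13090 (at 2 TPM) to 15490 (at 0.5 TPM). Of 94 list sums recomputed with effective lengths (exon length less the fragment length) or without mitochondrial genes, 82 lay within 1 SD, and the other 12 all came from effective lengths. With 1 rat left out, 4 list means moved by over 1.5 times: Hox genes from 14.1 to 0.706 TPM and pontine nuclei from 203.5 to 71.5 TPM without rat 5, noradrenaline and histamine from 5.15 to 1.90 TPM without rat 1, and meninges from 150.8 to 80.0 TPM without rat 3. The number of genes with an SD of at least 1 was 272, and it was 710 with no filter on low counts, 112 with a mean of at least 5 CPM, 147 (without rat 5) to 332 (without rat 4) over the settings that leave out 1 rat, and 47 without rats 3 and 5. Without division by length, the log2 ratio of Slc6a3 to Th was -0.03, that of Chrna4 to Chrna7 0.71 and that of Slc32a1 to Slc17a6 -0.26. Chosen by Spearman rho, 5 of the 10 genes most like Th were shared.

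With 1 rat left out, 5 rats cannot reach a p below 0.0625, so no pair passes; every pair that passed kept its sign. The mean log2 ratios ranged from 0.51 to 0.57 for Gad1 to Gad2, -0.23 to -0.15 for Slc6a3 to Th, 5.25 to 5.75 for Drd2 to Drd1, 2.69 to 2.91 for Gabbr1 to Gabbr2, 2.05 to 2.23 for Grin2b to Grin2a, 1.02 to 1.29 for Gria2 to Gria1, 1.80 to 2.20 for Chrna4 to Chrna7, 3.74 to 4.21 for Htr2c to Htr2a, -9.66 to -8.83 for Oprm1 to Oprk1 (set by the 0.5 counts in place of 0, and -3.83 with 1 TPM added to both genes), and -4.13 to -3.94 for Slc1a2 to Slc1a3. No paired analysis was possible because the groups share no animal or replicate number and no groups were compared.

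Depth limits values near 3 counts (0.0708 to 0.0908 CPM), as for Oprm1 and most Hox genes outside rat 5.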
